A study of Mus musculus with 4 samples.

Results

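The genes of cholesterol and fatty acid metabolism were compared between regulatory T (Treg) cells with and without the deubiquitinase CYLD. The set held 38 genes of 5 roles: 13 enzymes of sterol synthesis, 5 genes of sterol sensing and transport, 3 genes of sterol efflux, 10 enzymes that make, elongate or desaturate fatty acids, and 7 enzymes that oxidise them. Each gene was read from a probe set annotated with exactly 1 gene symbol, and from the one with the highest mean over the 4 arrays where several were. This gave 37 of the 38 genes, among 19938 genes in all. Nr1h2, the gene of the sterol receptor LXR beta, was not analysed here. Genes whose mean log2 level lay above 6.29, the 30th percentile, were tested, and 36 of the 37 passed, among 13956 genes tested. Scd1, a stearoyl-CoA desaturase, lay below the filter, reading intensities of 56.0 and 52.3 with CYLD and 62.5 and 69.9 without it, where each pair gives replicates 1 and 2 in that order.

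Cells make cholesterol from acetyl-CoA through the mevalonate pathway, and its enzymes are induced together by the transcription factors SREBP1 and SREBP2 when membrane sterol is low. Surplus sterol is exported by ABC transporters that the LXR receptors induce. Dividing T cells draw on both sterol and fatty acid synthesis to build membranes, and both fatty acid oxidation and the mevalonate pathway have been linked to Treg cell maintenance and function.

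The study hybridised total RNA of sorted Treg cells, 2 arrays per genotype, to Affymetrix expression arrays. The wild-type cells were Cyld+/+ Foxp3-yfp-cre and the knockout cells Cyld fl/fl Foxp3-yfp-cre, both on the C57Bl6 background and from mice aged 6 to 8 weeks. Both groups therefore carried the Cre transgene, which is expressed with yellow fluorescent protein (YFP) wherever Foxp3 is, and sorting on YFP selected cells that express Foxp3. CYLD takes lysine-63-linked and linear ubiquitin chains off its substrates and restrains NF-kB signalling. The labels name spleen together with lymph nodes in some fields and spleen alone in another. They do not say whether replicates came from separate or pooled mice, so the spread between arrays behind the p-values may be technical. That spread was pooled over all genes tested, so a p-value does not measure the spread of its own gene.

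Array medians lay between 99.0 and 105 on the linear intensity scale, and the number of arrays limits the precision. Cyld read 524 and 502 with CYLD and 284 and 218 without it; the deleted part is not named in the labels, so the probe set may lie outside it. Foxp3 read 2016 and 1881 with CYLD and 1697 and 1553 without it. Of 7 tested Treg and CD4 T cell markers 0 passed the test, where 8.30% of all genes tested did. Among them were Cd3e, Il2ra and Cd3g, with log2 differences of 0.01, -0.45 and 0.07. Il2ra was lower on both knockout arrays, at 2579 and 2499 with CYLD and 1914 and 1810 without it (limma adjusted p = 0.0831). It passed with 16 in place of 1 added before the logarithm (0.0474) and with an intensity trend in the variance (4.73e-04). In no other setting with all 4 arrays did Il2ra pass. Of 12 tested macrophage and monocyte markers 10 passed as lower in the knockout, beside 3.50% of all genes tested. Sirpa and Vcam1 were among them (log2 differences of -1.51 and -1.19). Axl was higher (1.02), and Lyz2 did not pass (-0.05). In RNA of sorted bulk cells, fewer cells of a type and less RNA per cell cannot be told apart. Knockout replicate 2 stood apart from replicate 1: the summed intensity of 24 proliferation genes was 9420 and 9240 in wild type, 11821 on knockout replicate 1 and 18202 on knockout replicate 2. Y-linked Kdm5d read 271 and 275 with CYLD and 268 and 127 without it, and Xist, which is expressed from the inactive X chromosome, 1306 and 1403 against 1630 and 2321. Both passed the test between genotypes (log2 differences of -0.56 and 0.52, adjusted p = 0.0160 and 0.0291), but not without knockout replicate 2 (-0.03 and 0.27, adjusted p = 0.964 and 0.453) or without either wild-type array (adjusted p between 0.216 and 0.467). Their part in the lipid results was not tested. B cell markers gave no call (0 of 4 tested, with Cd79b, Pax5 and Blk at log2 differences of -0.45, 0.24 and 0.17). Cd79b was lower on both knockout arrays, at 273 and 259 with CYLD and 202 and 188 without it (limma adjusted p = 0.085). The other 3 were higher on both. Stromal and adipose markers gave no call either (0 of 3, with Col1a1, Plin1 and Col3a1 at 0.12, -0.05 and -0.28). Both lists are short, where 8.30% of all genes tested passed.

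The comparison of knockout with wild type asks which of these transcripts differ when Treg cells lack CYLD. Of the 36 tested genes, 1 was higher in the knockout, the desaturase gene Fads2, and 1 was lower, the sterol exporter gene Abca1, each at an adjusted p under 0.05 in limma. That is 5.56% of the set, beside 8.30% of all genes tested (4.79% higher and 3.50% lower). The log2 fold changes of the 36 genes were split evenly, 18 above 0 and 18 below, with a median of 0.00 beside -0.02 over all genes tested. The 34 genes that did not pass had 95% intervals that lay between -0.74 and 0.79, or 1.67-fold downward to 1.73-fold upward. These bounds hold only under 1 variance shared by all genes, with an SE of 0.17 for each. In a fit without that pooling the SEs of these genes ran from 0.025 for Dhcr7 to 0.357 for Fads1. At an unadjusted p under 0.05 there were 8 of the 36 genes, beside 20.0% of all genes tested. The smallest change called anywhere in this comparison was 1.40-fold.

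**Figure D1:**
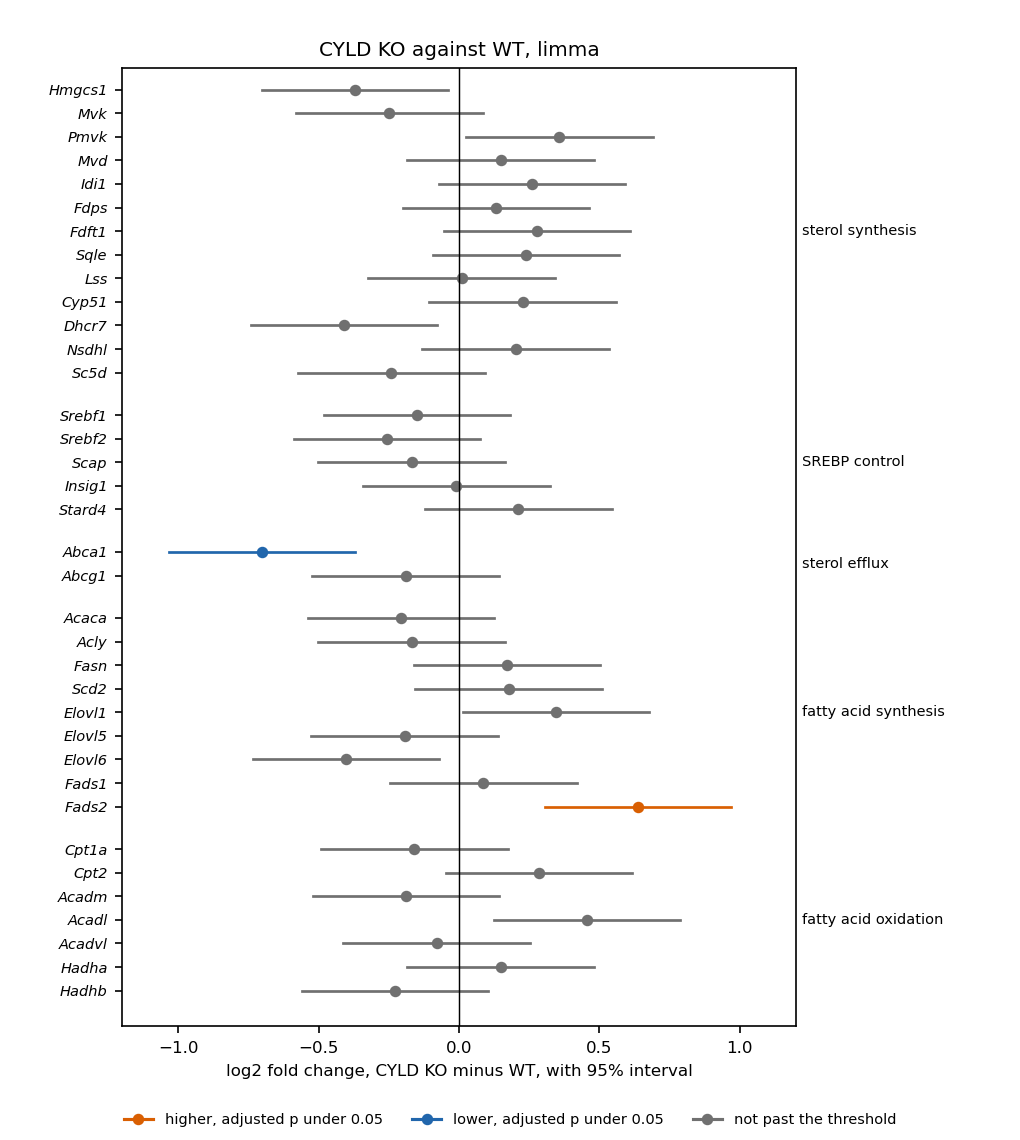
Log2 fold change of the 36 tested genes, knockout minus wild type (horizontal axis), with the 95% interval of limma's moderated fit as a line; 2 arrays per genotype. Abca1 at -0.70 and Fads2 at 0.64 are past the threshold, and the other points lie between -0.41 and 0.46.

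Separation of the arrays was more frequent than calls. Both knockout arrays lay above both wild-type arrays in 12 of the 36 genes and below them in 13, which together is 69.4% of the set beside 48.7% of all genes tested (22.5% above and 26.2% below). The interval of each fold change is as wide for every gene, 0.33 on the log2 scale to each side, because limma estimated 1 variance for all genes. A fit without that pooling called 0 of the 36 genes and 0 of all genes, where the smallest adjusted p was 0.208 and an unadjusted p under 0.05 was reached by 5 and 1814 genes.

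**Figure D2:**
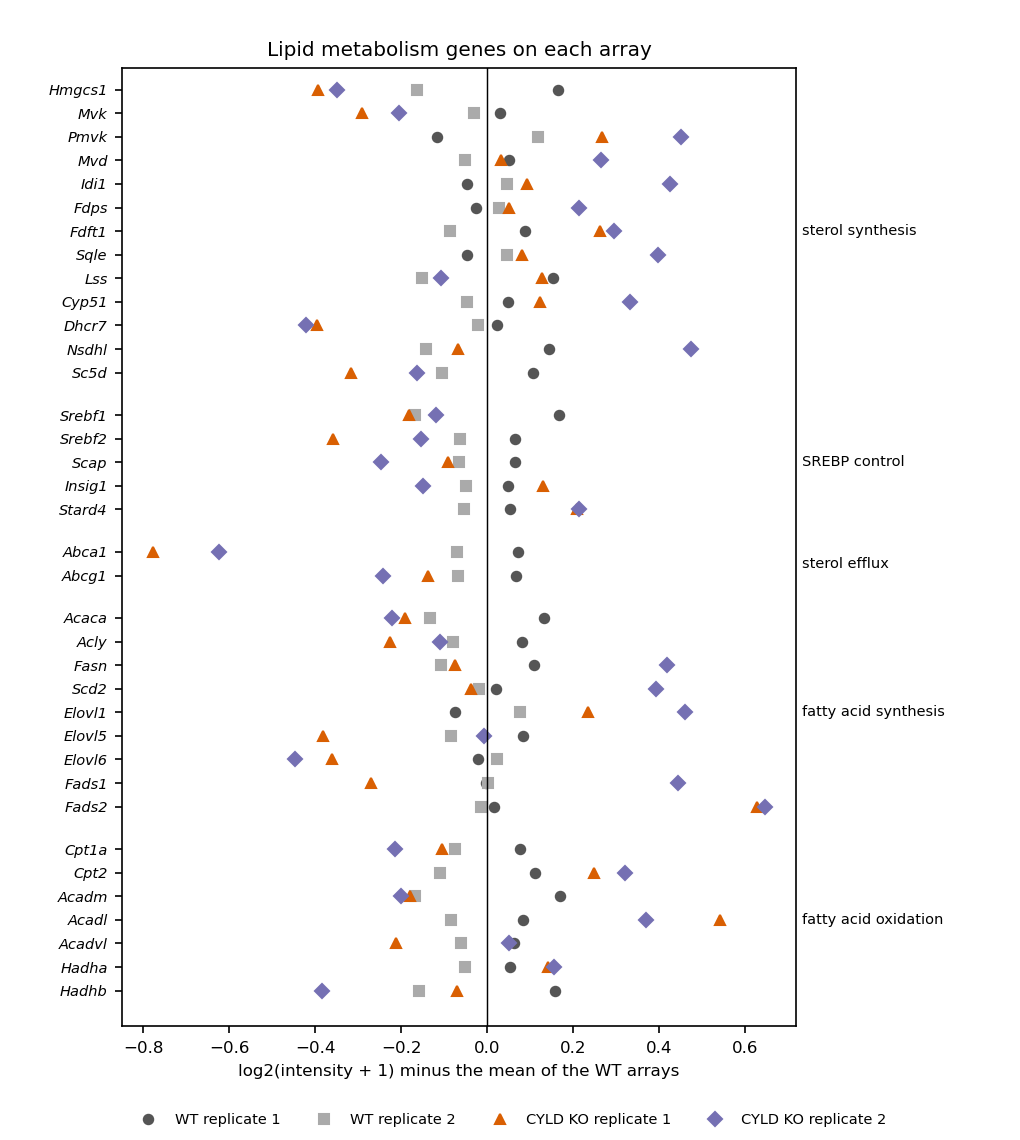
Log2(intensity + 1) of each tested gene on each of the 4 arrays, relative to the mean of the wild-type arrays (horizontal axis), with genes grouped by role. Both knockout arrays stand left of wild type for Abca1 and right of it for Fads2, while Fads1, Nsdhl and Fasn have knockout replicate 2 to the right and replicate 1 among or left of the wild-type arrays.

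Sterol efflux and its control held the gene that fell. Abca1 encodes the transporter that loads cellular cholesterol onto apolipoprotein A-I. Its intensity was 318 and 288 with CYLD and 176 and 196 without it. Both knockout values lay well below both wild-type values, and the level in the knockout was 61.4% of that in wild type (303 ± 21.0 against 186 ± 14.0, mean ± SD, n = 2). This is a log2 fold change of -0.70 ± 0.17 (SE), with a limma adjusted p of 0.00109. Without wild-type replicate 1 it was -0.63 and did not pass (adjusted p = 0.154). Abcg1, the transporter that passes sterol to high-density lipoprotein, read 670 and 610 with CYLD and 581 and 540.5 without it. Its arrays did not overlap either, but the difference of -0.19 did not pass (adjusted p = 0.571).

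The promoter of Abca1 is shown because it belongs to the member that fell. The window runs from 250 bases before to 50 bases after the RefSeq start, at chr4:53159846-53160145 on the minus strand of GRCm38.p6, and capitals mark its 2 matches to the Sp1 box GGGCGG.
Abca1: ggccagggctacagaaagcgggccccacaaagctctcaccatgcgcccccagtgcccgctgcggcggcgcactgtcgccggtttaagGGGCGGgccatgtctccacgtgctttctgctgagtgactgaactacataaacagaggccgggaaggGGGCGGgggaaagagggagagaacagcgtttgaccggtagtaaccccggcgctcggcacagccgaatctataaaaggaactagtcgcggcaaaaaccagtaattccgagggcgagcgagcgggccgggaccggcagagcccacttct
It held 0 matches to the NF-Y box CCAAT and 0 to the sterol regulatory element TCACNCCAC, each searched on both strands.

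Further genes of sterol uptake, storage and control were followed beside the set, 10 of them tested, of which 2 were lower and 0 higher. That is 20.0% of these few genes, beside 8.30% of all genes tested. Mylip, which encodes the ubiquitin ligase IDOL that degrades the LDL receptor, read 777 and 729 with CYLD and 461 and 418 without it. Its level in the knockout was 58.4% of wild type, with a log2 fold change of -0.78 ± 0.17 (adjusted p = 1.87e-04; 0.0588 without wild-type replicate 1). Lipa, the lysosomal acid lipase that frees cholesterol and fatty acids from lipoprotein esters, read 1031 and 1027 with CYLD and 626 and 662 without it. The groups were again well apart, and Lipa fell by 0.68 on the log2 scale (adjusted p = 0.00184; 0.106 and 0.0930 without wild-type replicates 1 and 2). Npc2, which hands cholesterol on inside lysosomes, read 1167 and 1068 with CYLD and 804 and 810.2 without it, a log2 difference that missed the threshold (-0.47, adjusted p = 0.0645), although it passed with 16 in place of 1 added before the logarithm (0.0376) and with an intensity trend in the variance (0.00845). Nr1h3, the gene of LXR alpha, lay below the filter at 70.3 and 76.9 with CYLD and 58.6 and 57.7 without it.

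Abca1, Lipa and Npc2 are also expressed by macrophages, and 10 of the 12 tested macrophage and monocyte markers were lower too. The summed intensity of all 15 markers read here was 3928 and 3782.5 with CYLD and 3162.5 and 3608 without it. Axl rose from 963 and 999 to 1919 and 2061, and without it the sum of the other 14 was 2965 and 2784 with CYLD and 1244 and 1547 without it. Lyz2 read 102 and 104 against 76.1 and 130.1, and Cd14, below the filter, 60.3 and 65.6 against 70.2 and 59.0, so neither was separated between the genotypes. None of these markers was at 0, and the lowest value was 51.6. The part of the marker differences in the lower Abca1, Lipa and Mylip was not tested.

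**Figure D3:**
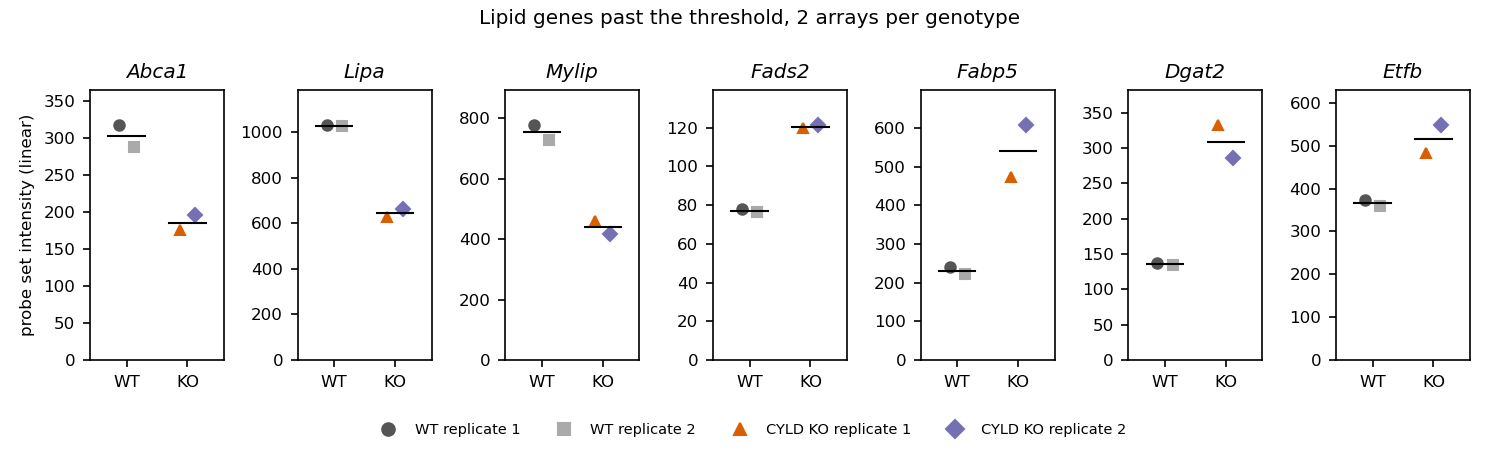
Intensity on the linear scale (vertical axes from 0) of the 7 lipid genes past the threshold, from the set and the pathway lists, on 2 wild-type and 2 knockout arrays, with a horizontal bar at each mean. In each of them both knockout points lie on the same side of both wild-type points; Abca1, Lipa and Mylip are lower and Fads2, Fabp5, Dgat2 and Etfb higher.

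None of the 13 sterol synthesis enzymes passed the test, where 8.30% of all genes tested did. Their median log2 fold change was 0.15, beside -0.02 over all genes tested, with 9 above 0 and 4 below, and a range from -0.41 to 0.36. By array, the median difference from the wild-type mean was 0.05 on knockout replicate 1 and 0.26 on knockout replicate 2. At the head of the pathway, Hmgcs1, which joins acetyl-CoA units into HMG-CoA, read 281 and 224 with CYLD and 191 and 196 without it. Both knockout values were the lower ones, and the difference of -0.37 did not pass (adjusted p = 0.185; 95% interval -0.70 to -0.04). The 3 steps that phosphorylate and decarboxylate mevalonate went different ways. Mvk, mevalonate kinase, read 166 and 159 with CYLD and 132 and 140.5 without it. Pmvk, the next kinase, read 80.8 and 95.3 with CYLD and 106 and 120.2 without it. Mvd, the decarboxylase, read 177 and 165 against 174 and 205. The knockout arrays were thus below wild type for Mvk, above it for Pmvk and overlapping for Mvd, with log2 differences of -0.25, 0.36 and 0.15.

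From isopentenyl diphosphate to squalene the enzymes read slightly higher without CYLD, within the error of the fit. Idi1, the isomerase of that building block, read 157 and 168 with CYLD and 173 and 219 without it (log2 difference 0.26). Its other probe set read 135 and 132 against 112 and 108, lower in the knockout, so the direction for Idi1 depends on the probe set. Fdps, which makes farnesyl diphosphate, read 330.3 and 343 against 349 and 390.1 (0.13). Fdft1, squalene synthase, read 427 and 378 against 482 and 494 (0.28), and its other probe set gave 0.32. In these enzymes, by the probe sets taken, both knockout values were above both wild-type values, and none passed (limma adjusted p between 0.361 and 0.721). Without knockout replicate 2 the log2 differences of Idi1, Fdps and Fdft1 were 0.09, 0.05 and 0.26.

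From squalene on to cholesterol the values again split. Sqle, squalene epoxidase, read 241 and 257 with CYLD and 263 and 328 without it (log2 difference 0.24). Lss, which closes the sterol rings, read 131 and 105 against 128 and 109, with complete overlap (0.01). Cyp51, the lanosterol demethylase, read 125 and 117 against 132 and 153 (0.23). Nsdhl, which acts on the C4 methyl groups, had a wide spread, with 412 and 338 with CYLD and 356 and 519 without it (0.20). For the last enzymes both knockout arrays lay below wild type. Sc5d, a desaturase, read 624 and 539 with CYLD and 465 and 518 without it (-0.24), and Dhcr7, the final reductase, 343 and 333 against 256 and 252. The Dhcr7 arrays agreed closely within each genotype and the level in the knockout was 75.2% of wild type, yet the difference of -0.41 did not pass (adjusted p = 0.129). Of 5 further sterol synthesis genes tested beside the set, 0 passed, where 8.30% of all genes tested did. Ggps1, which makes geranylgeranyl diphosphate, read 460.5 and 381 with CYLD and 349 and 320.0 without it (limma adjusted p = 0.262).

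Of the 38 genes 30 had a promoter in the RefSeq table of GRCm38.p6, 10 of them sterol synthesis enzymes. The sterol regulatory element TCACNCCAC lay in 1 of the 30, that of Hmgcs1 (3.33%), beside 1.44% of 27025 genes and 1.24% of 32851 promoters of the same length. The NF-Y box CCAAT was present for 18 of the 30 genes (60.0%, beside 41.1% of all genes) and for 10 of the 10 sterol enzymes. The Sp1 box GGGCGG was present for 22 (73.3%, beside 38.2%) and for 9 of the 10 sterol enzymes. The window of Hmgcs1, chr13:119690101-119690400 on the plus strand, is shown because all 3 motifs occur in it: capitals mark 1 sterol regulatory element, 4 NF-Y boxes and 3 Sp1 boxes on either strand.
Hmgcs1: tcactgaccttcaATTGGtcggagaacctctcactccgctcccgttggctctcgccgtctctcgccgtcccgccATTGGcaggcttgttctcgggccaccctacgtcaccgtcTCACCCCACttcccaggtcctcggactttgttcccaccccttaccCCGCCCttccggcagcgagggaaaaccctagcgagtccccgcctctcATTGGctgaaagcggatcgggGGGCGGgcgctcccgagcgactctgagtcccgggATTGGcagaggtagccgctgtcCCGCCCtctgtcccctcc
These matches describe the letters in the window, and no binding was measured. Each motif was searched as 1 fixed pattern, so a window without a match may still hold a site that differs from it.

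The genes that sense sterol and switch the pathway gave 0 calls among 5 tested, beside 8.30% of all genes tested. Their median log2 fold change was -0.15. Srebf2, the gene of the master regulator of sterol synthesis, read 919 and 841 with CYLD and 685 and 790 without it. Both knockout values were below wild type (log2 difference -0.26, adjusted p = 0.409). Srebf1, its relative that drives fatty acid synthesis, read 215 and 170.0 against 168 and 176, with overlap (-0.15). Scap, which escorts SREBP to the Golgi, read 417 and 381 against 374.5 and 336 (-0.17). Insig1, which holds SCAP in the endoplasmic reticulum and is itself a sensitive SREBP target, read 375 and 350.4 against 397 and 327 (-0.01), and Stard4, a cytosolic sterol carrier, 126 and 117 against 140.4 and 141 (0.21). The wild-type and knockout values of Insig1 were interleaved, while the Stard4 arrays were separate.

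Fatty acid synthesis held the gene that rose. Fads2 encodes delta-6 desaturase, which starts the conversion of linoleic acid to long polyunsaturated fatty acids. It read 78.0 and 76.3 with CYLD and 119.8 and 121 without it. The replicates were close to each other and the groups apart, with 77.2 ± 1.16 against 121 ± 1.07 (mean ± SD, n = 2), or 156% of wild type. This is a log2 fold change of 0.64 ± 0.17, with a limma adjusted p of 0.00405. In wild type its mean log2 level was 6.29, just under the filter, so Fads2 was tested because of its level in the knockout; without the filter the adjusted p was 0.00391, and above the median level it was not among the genes tested. Leaving out wild-type replicate 1 or 2 gave adjusted p-values of 0.130 and 0.154, so the call was lost each time. The authors' background correction is not given, so the signal may include background at this brightness and the fold may be understated. With an intensity trend in the variance the SE of Fads2 was 0.186 and its limma adjusted p 0.0104.

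The promoter of Fads2, chr19:10101454-10101753 on the minus strand of GRCm38.p6, is shown because it belongs to the member that rose, and capitals mark its 1 Sp1 box, with 0 matches to the other motifs.
Fads2: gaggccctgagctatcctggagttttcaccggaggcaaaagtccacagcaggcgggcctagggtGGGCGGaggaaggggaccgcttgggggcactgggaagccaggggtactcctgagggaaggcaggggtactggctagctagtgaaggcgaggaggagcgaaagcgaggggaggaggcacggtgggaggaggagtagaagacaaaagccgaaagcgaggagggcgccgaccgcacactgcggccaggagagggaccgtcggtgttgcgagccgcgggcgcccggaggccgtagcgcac
Fads1, the delta-5 desaturase that acts on the products of delta-6 desaturation, gave no call. It read 336 and 337 with CYLD and 279 and 458 without it, so 1 knockout array lay below and the other above wild type (log2 difference 0.09, adjusted p = 0.824).

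The core enzymes of fatty acid synthesis did not pass. Acly, which makes cytosolic acetyl-CoA from citrate, read 315 and 282 with CYLD and 255 and 276 without it (log2 difference -0.17). Acaca, acetyl-CoA carboxylase, read 193 and 160.1 against 154 and 150.4 (-0.21), and its other probe set differed by -0.02. Fasn, fatty acid synthase, read 619 and 533 against 546 and 768 (0.17). By the probe sets taken, the Acly and Acaca arrays were lower in the knockout without overlap. The other Acaca probe set overlapped, at 93.8 and 97.5 with CYLD and 97.1 and 91.3 without it. Fasn was above wild type on knockout replicate 2 and between the wild-type values on replicate 1.

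Elongases and the remaining desaturase differed among themselves. Scd2, a stearoyl-CoA desaturase, read 774.5 and 753 with CYLD and 744 and 1002 without it (log2 difference 0.18). Elovl1, which extends very long saturated chains, read 795 and 883 against 985 and 1153 (0.35; adjusted p = 0.223). Elovl6, which extends palmitate to stearate, read 376 and 388 against 298 and 280.2. Elovl1 was thus higher and Elovl6 lower on both knockout arrays, Elovl6 at 75.6% of wild type with a difference of -0.40 that did not pass (adjusted p = 0.137). Elovl5, which extends polyunsaturated chains, read 1232 and 1097 with CYLD and 892 and 1157 without it (-0.19), with overlap. Over the 9 tested genes of fatty acid synthesis the median was 0.09.

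Among 12 further tested genes of fatty acid synthesis, activation and handling, 2 were higher and 0 lower, 16.7% beside 8.30% of all genes tested. Fabp5, a cytosolic fatty acid binding protein, read 240.1 and 221 with CYLD and 474 and 607 without it. It more than doubled, with a log2 fold change of 1.22 ± 0.17 (adjusted p = 1.47e-10), and its other probe set read 189 and 185 against 355 and 427. Dgat2, which makes triglyceride from diacylglycerol, read 137.5 and 135 with CYLD and 332.5 and 286 without it, 227% of wild type (log2 fold change 1.17 ± 0.17, adjusted p = 6.90e-10). Both calls held without each of the arrays in turn, with adjusted p of at most 1.19e-04 for Fabp5 and 1.16e-04 for Dgat2. Fabp5 belongs to a family of similar genes and its probes may read relatives. Acsl5, a fatty acyl-CoA synthetase, read 776 and 635 against 814 and 958 and did not pass (adjusted p = 0.254).

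None of the 7 fatty acid oxidation genes passed, where 8.30% of all genes tested did, and their median log2 fold change was -0.08. Cpt1a, which controls the entry of fatty acids into mitochondria, read 631 and 568.5 with CYLD and 557 and 516 without it (log2 difference -0.16). Cpt2, its partner on the inner membrane, read 227 and 194 against 249.5 and 263 (0.28). Their arrays did not overlap and the differences had opposite signs. The acyl-CoA dehydrogenases also differed. Acadl, for long chains, read 205 and 182 with CYLD and 281.5 and 249.9 without it, 137% of wild type (0.46; adjusted p = 0.0758). Acadl passed with quantile normalization (limma adjusted p = 0.0387), and in no other setting with all arrays kept. The adjusted p was 0.0953 with an intensity trend in the variance, 0.106 with replicate number as a block and 0.409 without pooling of variances. Leaving out each array in turn gave log2 differences of 0.37 to 0.54 for Acadl. Acadm, for medium chains, read 197 and 156 against 155 and 153 (-0.19), and Acadvl, for very long chains, 125 and 115 against 104 and 124.5 (-0.08).

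The trifunctional protein that completes each round of oxidation is built from Hadha and Hadhb. Hadha read 961 and 893 with CYLD and 1022 and 1032 without it (log2 difference 0.15). Hadhb read 302 and 242 against 257.5 and 207 (-0.23), and its other probe set differed by -0.27. Neither subunit passed. Of 17 further oxidation genes tested, 1 was higher and 0 were lower, 5.88% beside 8.30% of all genes tested. The gene was Etfb, a subunit of the flavoprotein that takes electrons from the dehydrogenases. It read 373 and 359.5 with CYLD and 483 and 548 without it (0.49 ± 0.17, limma adjusted p = 0.0476). This call was close to the threshold and was lost when wild-type replicate 1, wild-type replicate 2 or replicate 2 of the knockout was left out (adjusted p = 0.370, 0.400 and 0.198), when replicate number entered as a block (0.0695), and without the filter on dim genes (0.0526). Hadh, a hydroxyacyl-CoA dehydrogenase, read 590 and 474.5 against 467 and 510.0 (adjusted p = 0.757). Over the 44 further lipid genes tested in the 4 pathway lists, 3 were higher and 2 lower, 11.4% beside 8.30% of all genes.

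Within the knockout, genes of sterol and fatty acid synthesis read higher on replicate 2 than on replicate 1. This held for 11 of 13 sterol enzymes, with a median log2 difference of 0.16, and for 7 of 9 fatty acid synthesis genes, with a median of 0.23, beside 46.2% of all genes tested and a median of -0.03. The widest gaps were 0.72 in Fads1, 0.54 in Nsdhl, 0.49 in Fasn and 0.43 in Scd2. Without knockout replicate 2 the log2 differences from wild type of these genes were -0.27, -0.07, -0.07 and -0.04. Among oxidation genes 3 of 7 read higher on replicate 2, with a median of -0.02. The 24 tested proliferation genes were all higher on knockout replicate 2 than on replicate 1, by a median of 0.62. Ccnb2 read 849 and 1562, Mcm5 960.1 and 1338 and Pcna 2029 and 2618 on replicates 1 and 2. Against wild type 19 of the 24 passed as higher, beside 4.79% of all genes tested. The part of the proliferation difference in the lipid genes was not tested. These counts were made after the values were seen. Within wild type, replicate 1 read higher than replicate 2 in 29 of the 36 genes, by a median of 0.13, beside 52.1% of all genes tested.

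**Figure D4:**
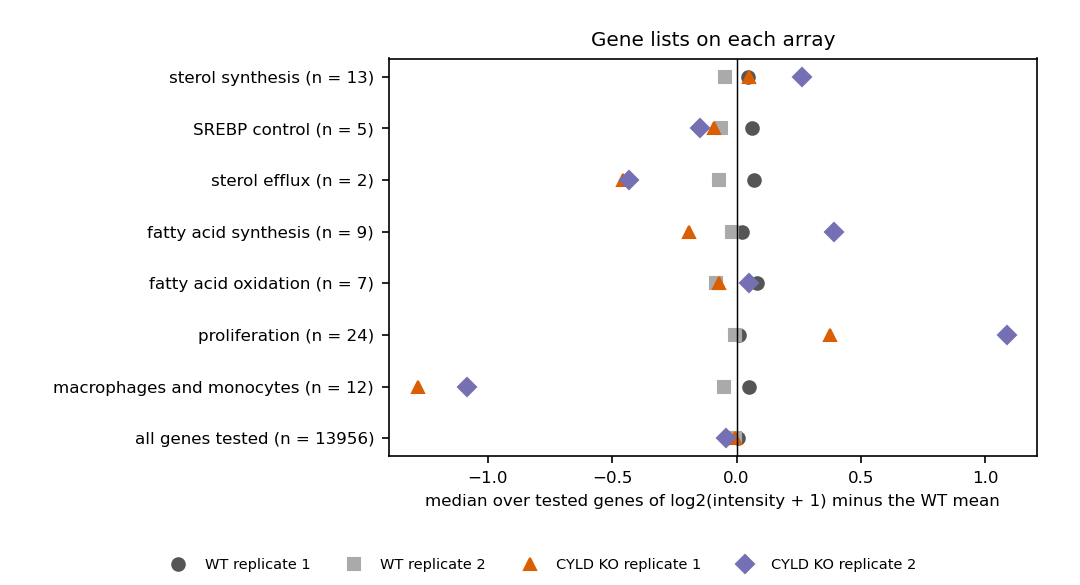
Median over the tested genes of each list of log2(intensity + 1) minus the wild-type mean (horizontal axis) on each of the 4 arrays, with the number of genes tested beside the name of each list. Sterol synthesis lies at 0.05 and 0.26 and fatty acid synthesis at -0.19 and 0.39 on knockout replicates 1 and 2, proliferation at 0.37 and 1.09, and macrophage markers at -1.28 and -1.08.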

How the data were processed

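Total RNA of 4 sorted Treg samples was measured on arrays. The table deposited by the authors gives a linear intensity for each of 35557 probe sets on each array, from 26.6 to 7205. Per the labels, biotin-labelled cRNA was prepared by the standard Affymetrix procedure. The authors' summary, background correction and scaling are not given in the sources used here. Detection calls were not used, so absence of a transcript could not be called. Gene names came from GEO's annotation of the platform: 21789 had 1 gene symbol, 1621 several and 12147 none listed. Of the genes with several probe sets, that with the highest mean was kept.

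Intensities were converted to log2(value + 1), on which all fold changes stand. Knockout was compared with wild type over 13956 genes with limma 3.58.1 in R 4.3.3, using lmFit and eBayes with 2 residual degrees of freedom. From these eBayes estimated 1 variance for all genes, so every log2 fold change had an SE of 0.17. The threshold was a Benjamini-Hochberg adjusted p of 0.05. Every adjusted p is from this fit or, where an array or setting is named, from the fit so changed. An exact permutation test of 2 against 2 arrays cannot go below p = 0.333 (two-sided). The genes, lists, motifs and alternatives were chosen with earlier results of these data known. Named beside the 38 genes and Cyld were, in each pathway list, the genes past the threshold (up to 4 each way) and the one with the highest mean that was not, and the 3 members with the highest mean of each marker list and of the proliferation list; Foxp3, Kdm5d, Xist, Lyz2, Cd14, Nr1h3 and the sum without Axl were added after the values were seen. Promoter sequences are from RefSeq (GRCm38.p6).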

Additional observations from a re-analysis of the deposited data

How the results depend on the processing

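The counts of lipid genes past the threshold, 1 higher and 1 lower of 36, were the same without a filter on dim genes, with arrays centred on their medians, with array weights, with a variance trend on intensity, with 16 added in place of 1, with the mean of all probe sets, with an adjusted p under 0.01 and under a replicate block. The number higher was 0 among genes above the median level, where Fads2 was not tested, and 2 with quantile normalization, where Acadl joined; without pooling of variances both counts were 0. Leaving out 1 array in turn gave 0 to 2 higher and 0 to 1 lower; with 1 array left in a genotype, that array is assumed to vary like the others. Over all genes, 669 were higher and 489 lower, 0 and 0 without pooling of variances, and 277 were lower at an adjusted p under 0.01; leaving out 1 array gave 254 to 898 higher and 110 to 768 lower.

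The replicate number as a block gave 603 higher and 429 lower genes over the whole table, with 1 and 1 in the lipid set. The labels do not say that a number marks a shared batch or mouse, and the deviations of same-numbered arrays from their group means correlated at -0.09 across genes, so the numbers were not taken as pairs.

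Among 63 genes followed singly, 17 differences changed sign, all of them in genes that did not pass. Outside the leave-one-out fits these were Idi1 with the mean of all probe sets (-0.01), and Insig1 with arrays centred on their medians (0.017) and with quantile normalization (0.00). Leaving out 1 array in turn gave log2 differences of -0.14 to 0.16 for Lss, -0.07 to 0.47 for Nsdhl, -0.15 to 0.13 for Insig1, -0.318 to 0.016 for Srebf1, -0.074 to 0.418 for Fasn, -0.038 to 0.391 for Scd2, -0.27 to 0.44 for Fads1, -0.211 to 0.051 for Acadvl, -0.27 to 0.04 for Hadh, -0.13 to 0.15 for Cd3e, -0.14 to 0.37 for Col1a1 and -0.179 to 0.072 for Plin1. The causes of these changes were not tested. The signal of dim genes may include background, which limits what can be said of Scd1, Fads2 and Nr1h3.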
